A study of Mus musculus with 27 samples.

Results

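The response of WT M2 macrophages to tumour medium was read from 6 of the 27 libraries of the series, 3 of M2 cells exposed to MPNST-CM and 3 of M2 cells kept in control medium. They were chosen by sample title, as libraries 1 to 3 in MPNST-CM and libraries 2 to 4 in control medium, all labelled batch 1, and every gene that passed a filter on low counts was described. M2 cells are macrophages exposed to IL-4, a cytokine that acts through the transcription factor STAT6 and turns on genes of alternative activation, such as the mannose receptor Mrc1 and the secreted protein Retnla. Macrophages of this kind are common in malignant peripheral nerve sheath tumours (MPNST), and soluble factors from tumour cells are known to act on their genes for chemokines, matrix proteins and metabolism.

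The cells came from bone marrow of female C57BL/6 mice aged 3-4 months, kept in culture for 4 days and then 3 days more as unpolarized macrophages (Mφ), and were turned into M2 cells by 24 h of IL-4 (10 ng/mL). MPNST-CM was complete DMEM conditioned by sMPNST cells, a murine line from tumours of skin-derived precursors that lack Nf1 and p53, and the control medium was DMEM. The cells spent 48 h in either medium, with a change after 24 h, and their polyadenylated RNA was read at its 3′ ends. For comparison, the text gives the response to the same media of WT Mφ and of M2 cells from TRAP1 KO mice, with 3 libraries of batch 1 in each medium and no library shared with WT M2. No source says whether the replicate libraries of a group came from separate animals. In such bulk libraries, fewer cells of a type and less RNA per cell cannot be told apart.

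The table held raw counts. Values are CPM, counts brought to a common library total with TMM factors, and changes are log2 fold changes, MPNST-CM minus control medium. The libraries held 8162788, 8069660 and 7783061 counts in MPNST-CM (1, 2 and 3) and 7392454, 8510959 and 7862505 in control medium (2, 3 and 4), and 3 counts, the limit that a count of 0 allows, came to between 0.365 and 0.450 CPM. These limits cover counting error only. Trap1, the gene deleted in the TRAP1 KO mice, was at 10.4, 10.5 and 10.6 CPM in MPNST-CM and at 15.8, 16.3 and 18.8 CPM in control medium, and had no counts in the TRAP1 KO libraries of batch 1. It fell in MPNST-CM (log2 fold change -0.69, standard error 0.18, edgeR adjusted p = 0.00798), but not past the threshold without control library 4 (-0.57, edgeR adjusted p = 0.0627). The cells carried the markers of macrophages, of which all 10 were tested, led by Lyz2, with a summed level of 8711 to 9464 CPM in MPNST-CM and 9806 to 10229 CPM in control medium. Retnla and Ear2, genes of IL-4 activation, were at 1644 to 1693 and 32 to 33.7 CPM in WT M2 in control medium and at most at 0.570 and 0.130 CPM in WT Mφ in the same medium. Mrc1 did not set these cells apart in control medium, at 757, 752 and 750 CPM in WT M2 and 714, 748 and 737 CPM in WT Mφ.

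MPNST-CM library 1 stood apart from libraries 2 and 3 of its group. Its Spearman's rho with them, across genes, was 0.977 and 0.979, against 0.992 between those libraries and 0.991 among the control libraries. It had more counts of non-coding and ribosomal RNA: Malat1 was at 10406 CPM in it, against 2344 and 2234 CPM in libraries 2 and 3. The ribosomal transcripts Rn18s-rs5 and mt-Rnr2 were at 26356 and 23810 CPM, against 6336 and 7721 CPM, and 5203 and 5357 CPM. Library 1 was also above every control library in these transcripts, and libraries 2 and 3 were below every one. In control medium Rn18s-rs5 was at 10864.6 to 11825.5 CPM and mt-Rnr2 at 9042 to 10644 CPM. These transcripts were chosen after their values were seen. Library 1 of WT Mφ also stood above libraries 2 and 3 in the topoisomerase Top2a, chosen likewise. Top2a was at 652 against 396 and 396 CPM in MPNST-CM and at 533 against 325 and 332 CPM in control medium. WT M2 in control medium has no library 1, and what libraries of this number share was not tested. Counts and calls below are given without MPNST-CM library 1 wherever that moved a count by over 1.5 times or ended a call. The part of its RNA composition in the results was not tested. Other libraries of the groups compared also stood apart, in genes chosen likewise. WT Mφ library 1 in MPNST-CM had Ccl2 at 296 against 784 and 761 CPM, and Pparg at 4.40 against 18.3 and 17.8 CPM. TRAP1 KO M2 library 2 in control medium had Pparg at 18.7 against 66.8 and 67.6 CPM. Only libraries of WT M2 were left out in turn, so differences from Mφ and TRAP1 KO M2 were not tested without these libraries.

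WT M2 macrophages changed broadly in MPNST-CM. Of 13614 genes tested, 3330 (24.5%) passed an adjusted p of 0.05 in edgeR's quasi-likelihood test, which gave all adjusted p-values below, with 1524 higher (11.2%) and 1806 lower (13.3%) in MPNST-CM. The libraries of the media did not overlap for 3243 of the genes past the threshold, and for 5350 (39.3%) of all genes tested. Most changes were small: 2396 genes changed by under 2-fold, 146 rose by over 4-fold and 82 fell by over 4-fold. The median log2 fold change over all genes tested was -0.03. Without MPNST-CM library 1, 2889 genes passed, 1645 higher and 1244 lower, and 2495 of them were among the 3330, in the same direction. A fit that also held the 3 libraries of batch 2, none of which are of WT M2, called 1014 genes, 592 higher and 422 lower, of which 1013 were among the 3330 in the same direction. That fit held no term for batch. Of the 140 named genes past the threshold, that fit lost the calls of 69, and its calls are given below as counts per list. With no filter on low counts, 3132 of 29500 genes passed, 1792 higher and 1340 lower. A fit of the 6 libraries of WT M2 alone called 3179 genes, and 2920 of the 3330 in the same direction. DESeq2 called 3188 genes, and 3100 of the 3330 in the same direction.

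**Figure D1:**
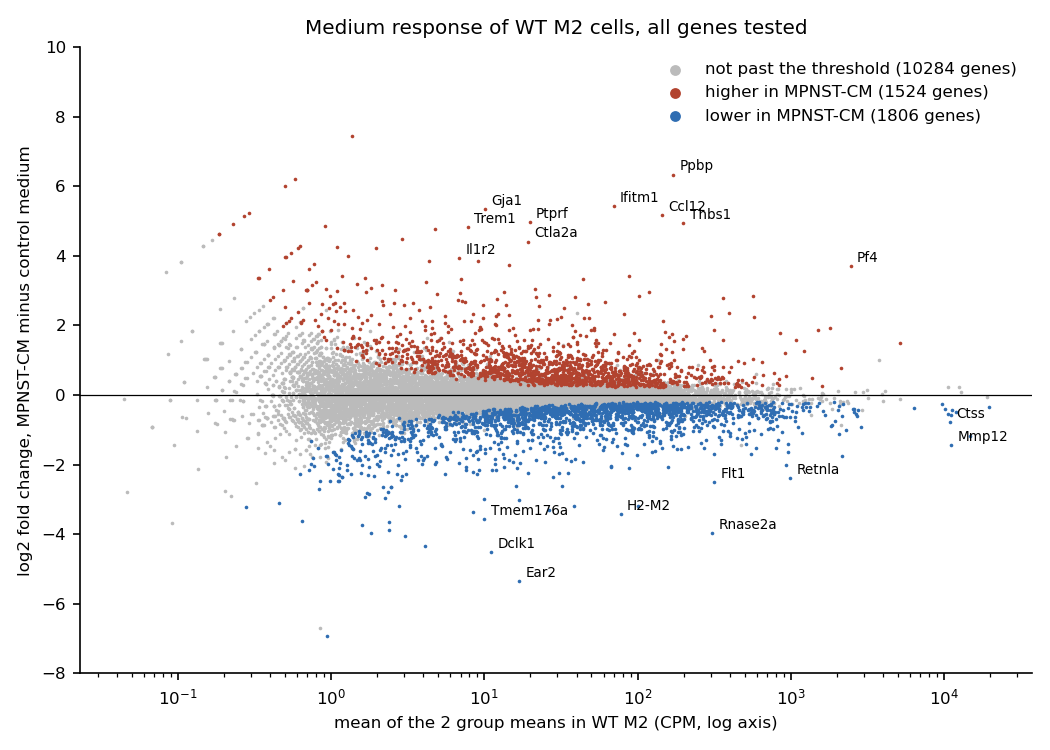
Change of every gene tested in WT M2 cells. Each point is a gene, placed by the mean of its CPM in both media (log axis) and its log2 fold change (MPNST-CM minus control medium), in red for the 1524 genes past the threshold and higher, in blue for the 1806 lower and in grey for the others. Ppbp and Pf4 stand above genes of like level, Ear2 and Rnase2a below.

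Among genes past the threshold without overlap between the media and whose higher mean was 10 CPM or more, the largest rise was that of Ppbp, the precursor of a platelet chemokine that attracts neutrophils. It was at 314, 351 and 349 CPM in MPNST-CM and at 3.61, 4.53 and 4.35 CPM in control medium, 80.5-fold higher (log2 fold change 6.33, standard error 0.24, adjusted p = 3.83e-14). Ifitm1, a membrane protein that restricts virus entry, followed at 120, 151 and 139 against 3.91, 2.59 and 3.09 CPM (42.8-fold). Gja1, which encodes the gap junction protein connexin 43, was at 19.2, 22.1 and 17.6 CPM in MPNST-CM and near the limit of detection in control medium, at 0.45, 0.39 and 0.56 CPM. The monocyte attractant Ccl12 rose 36.2-fold, from 6.76, 6.48 and 10.1 CPM to 257, 292 and 297 CPM. Thrombospondin 1 (Thbs1), a matrix protein that restrains the growth of vessels, was at 406, 370 and 381 CPM in MPNST-CM and at 14, 11.1 and 12.8 CPM in control medium, and the proteoglycan versican (Vcan) at 89.0, 73.3 and 79.6 against 7.21, 8.68 and 7.86 CPM. No library in MPNST-CM overlapped a control library for any of these genes.

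Other large rises were in receptors and protease inhibitors. Trem1, a receptor that amplifies inflammatory signals, was at 14.3, 13.5 and 17.2 CPM in MPNST-CM and near the limit of detection in control medium, at 0.901, 0.389 and 0.281 CPM. Il1r2, a decoy receptor for IL-1, was at 9.43, 12.7 and 16.6 CPM in MPNST-CM and at 0.901, 1.17 and 0.421 CPM in control medium. Control library 4 was at the limit of detection for Il1r2, so that its fold is not firm. The receptor phosphatase Ptprf was at 35.6, 39.2 and 40.1 CPM, against 0.75, 1.04 and 1.83 CPM in control medium. Ctla2a and Ctla2b resemble the inhibitory segment of cathepsin L. Ctla2a was at 37.2, 36.3 and 36.4 CPM in MPNST-CM and at 0.601, 3.24 and 1.12 CPM in control medium, where the libraries lie apart and library 2 was near the limit of detection, so that its fold is not firm. Ctla2b rose 10.7-fold, and the cysteine protease inhibitor Csta2 rose 14.5-fold. Rgs7bp, which binds regulators of G protein signalling, rose 10.1-fold. Ifitm1, Csta2 and the Ctla2 genes have close copies among the mouse genes, so the assignment of their reads is uncertain.

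Among genes chosen in the same way, the largest fall was that of Ear2, an eosinophil-associated ribonuclease that IL-4 turns on in macrophages. It was at 0.88, 1.10 and 0.38 CPM in MPNST-CM and at 32, 33 and 33.7 CPM in control medium, 41-fold lower (log2 fold change -5.36, standard error 0.36, adjusted p = 2.77e-11), with MPNST-CM library 3 near the limit of detection. Rnase2a, of the same family, fell 15.7-fold from 550, 588 and 593 CPM to 37.7, 33.9 and 38.2 CPM, and reads of this family may be split between its near-identical members. Fibronectin (Fn1) was at 19.9, 19.4 and 21 CPM in MPNST-CM, against 180, 188 and 179 CPM. The membrane proteins Tmem176a and Tmem176b fell 11.9- and 9.22-fold. The kinase Dclk1 was at 1.38, 0.488 and 0.881 CPM in MPNST-CM and at 17.6, 23.8 and 22.2 CPM in control medium. MPNST-CM library 2 was near the limit of detection for Dclk1, so that its fold is not firm. Endothelin 1 (Edn1), a peptide that constricts vessels, fell 9.91-fold. Flt1, a receptor for VEGF-A, fell 5.66-fold, from 535, 561 and 512 CPM to 105, 92.7 and 86.6 CPM. Other falls among the 15 largest were those of the non-classical MHC gene H2-M2 (10.8-fold), whose family holds close copies, Mamdc2 (7.94-fold) and Chn2, which acts on the GTPase Rac (6.07-fold). For each of these genes the highest library in MPNST-CM was below the lowest control library.

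**Figure D2:**
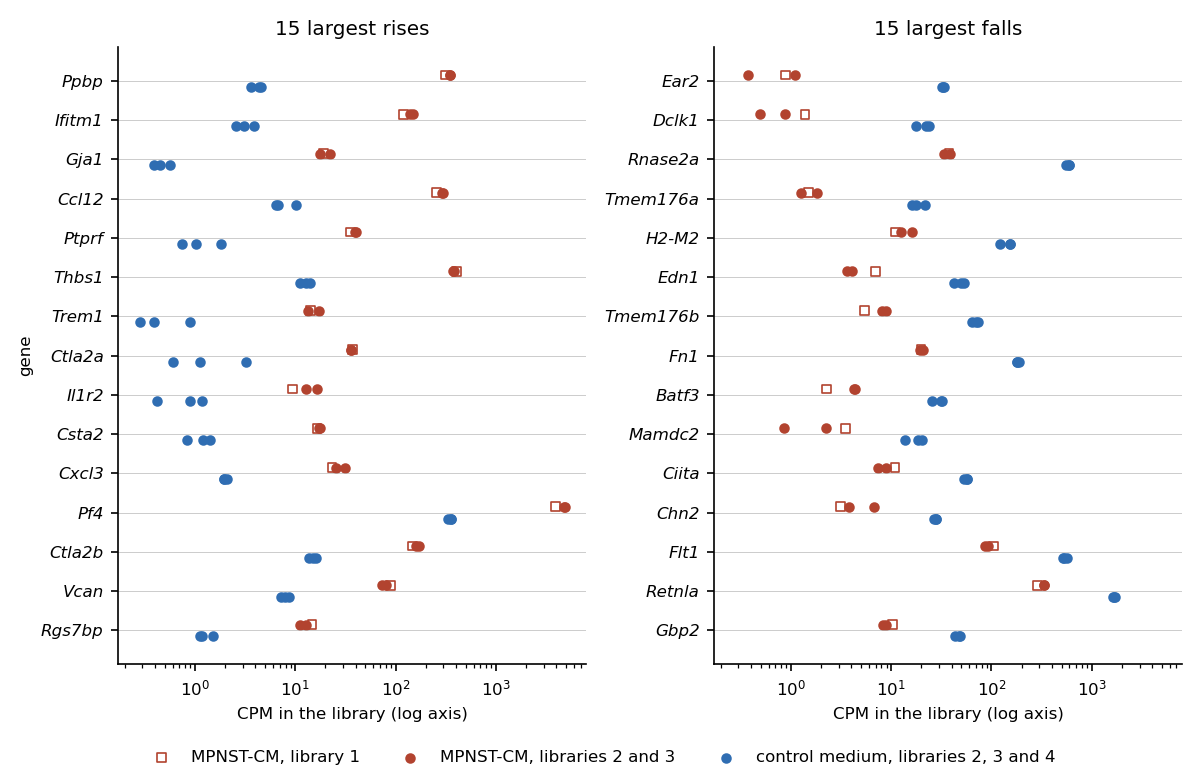
CPM (log axis) of the 15 genes with the largest rise and the 15 with the largest fall among genes past the threshold, without overlap between the media and with a higher mean of 10 CPM or more. Each mark is a library: MPNST-CM in red, with library 1 as an open square, and control medium in blue. In every row the marks of the media stand apart.

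Among genes past the threshold, the largest differences of mean CPM were those of Lpl and Mmp12. Lipoprotein lipase (Lpl) was at 8625, 9481 and 9160 CPM in MPNST-CM and at 20259, 21000 and 20672 CPM in control medium, and the macrophage elastase Mmp12 at 5521, 6248 and 6257 against 15772, 16213 and 16811 CPM. Cathepsins went both ways: Ctss (fold 1.72) and Ctsb (1.41) fell, while Ctsl rose from 2607, 2703 and 2768 to 6738, 7919 and 8074 CPM. Pf4 was at 3962, 4876 and 4834 CPM against 356, 337 and 358 CPM. The lectin Lgals3 fell 1.35-fold and the mitochondrial CYTB 1.5-fold. ND4 and the actin-binding Tmsb4x passed in the 24 libraries (adjusted p = 0.0428 and 0.0432), but missed the threshold without MPNST-CM library 1 or 3 or control library 2, 3 or 4 (adjusted p between 0.0544 and 0.478 for ND4 and between 0.0768 and 0.302 for Tmsb4x).

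Several chemokines that attract neutrophils and monocytes rose, and Ccl24, Ccl17 and Ccl22, which IL-4 turns on, fell. Of 11 CXC chemokines tested, 6 rose and 3 fell. Those that rose were Ppbp, Cxcl3, Pf4, Cxcl5, Cxcl2 and Cxcl1, most of them ligands of the neutrophil receptor CXCR2. Cxcl3 was at 23.3, 25.6 and 31.5 CPM in MPNST-CM and at 1.95, 2.07 and 1.97 CPM in control medium, and Cxcl2 at 87.9, 70.6 and 85.4 against 13.4, 10.8 and 15.9 CPM. Cxcl9, Cxcl14 and Cxcl16 fell. The changes of 3 of these genes have no firm size, since Cxcl1 (2.07 against 0.377 CPM) and Cxcl5 (0.743 against 0.0432 CPM) were near or below 3 counts per library in control medium and Cxcl9 (0.249 against 1.18 CPM) in MPNST-CM. Among 12 CC chemokines tested, 5 rose (Ccl12, Ccl7, Ccl8, Ccl2 and Ccl6) and 4 fell (Ccl24, Ccl17, Ccl22 and Ccl5), and the median log2 fold change of 0.01 reflects both directions. Ccl7, which attracts monocytes as Ccl2 does, rose 7.22-fold from 114, 151 and 150 CPM to 873, 1087 and 1035 CPM, and Ccl8 rose 4.64-fold. Ccl24, an eosinophil attractant, was at 11.4, 12.4 and 13 CPM in MPNST-CM and at 62.0, 56.9 and 56.7 CPM in control medium. Ccl9, the most abundant CC chemokine, was at 3327 ± 195 and 2998 ± 64.5 CPM (SD, n = 3) and did not pass (adjusted p = 0.163), but did without MPNST-CM library 1 (adjusted p = 0.0238) and with a replicate block (0.03255). In the fit of 27 libraries, 2 CXC chemokines rose and 1 fell, and 5 CC chemokines rose while the other 7 did not pass. Of 8 chemokine receptors, 4 fell, among them Ccr2 (115, 70.9 and 88.7 against 264, 269 and 273 CPM), the receptor of Ccl2, Ccl7 and Ccl12, and also Ccr3 (2-fold). Only Ackr3 rose, to a mean of 0.586 CPM, near the limit of detection, against no counts in control medium, and not without MPNST-CM library 3. The most abundant receptor, Ccr1, was at 428 ± 51.3 and 326 ± 16.6 CPM and did not pass (adjusted p = 0.335), but did in a fit of the 6 libraries alone (0.006818). With the 27 libraries 2 receptors fell and the other 6 did not pass.

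Ppbp and Pf4 lie near each other on the same chromosome and both rose, and their promoters are shown because, among the CC and CXC chemokines tested, Ppbp had the largest rise and Pf4 the highest CPM in MPNST-CM. The RefSeq promoters of this and the later paragraphs (GRCm38.p6) run from 250 bases before to 50 after the start of the gene, and 9906 of the genes tested had one. Capitals mark matches, on either strand, to the core of the HIF site (ACGTG, in 29.2% of these promoters) and, in Ppbp, to the AP-1 site (TGANTCA, in 6.5%). These are matches of letters and not evidence of binding. Ppbp lies at chr5:90768268-90768567 and Pf4 at chr5:90772185-90772484, both on the plus strand.
Ppbp: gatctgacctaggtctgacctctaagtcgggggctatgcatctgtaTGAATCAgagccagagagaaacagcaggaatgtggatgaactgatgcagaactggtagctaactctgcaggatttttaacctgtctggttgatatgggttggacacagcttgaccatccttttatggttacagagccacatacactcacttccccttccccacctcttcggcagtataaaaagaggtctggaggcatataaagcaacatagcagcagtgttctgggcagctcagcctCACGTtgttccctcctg
Pf4: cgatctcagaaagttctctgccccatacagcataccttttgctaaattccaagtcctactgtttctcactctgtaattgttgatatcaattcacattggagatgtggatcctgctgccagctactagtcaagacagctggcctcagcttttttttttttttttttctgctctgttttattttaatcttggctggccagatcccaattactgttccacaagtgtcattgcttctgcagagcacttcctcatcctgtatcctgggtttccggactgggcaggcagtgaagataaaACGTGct
Among the genes that rose, 9.27% of 1197 promoters held the AP-1 letters and 30.4% the HIF core, and among those that fell 8.52% and 28.9% of 1361.

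Genes of IL-4 activation split in MPNST-CM, and more of them fell than rose. Of 27 tested, 17 fell and 8 rose, and the median log2 fold change was -1.13. Retnla was at 291, 330 and 332 CPM in MPNST-CM and at 1693, 1644 and 1680 CPM in control medium, a 5.26-fold fall. The transcription factors Irf4, which IL-4 turns on through STAT6, and Batf3 fell 4.69- and 8.17-fold, and Ear2, Fn1, Flt1, Ccl24 and the chitinase-like gene Chil3 fell with them. Other members rose. The mannose receptor Mrc1, the most abundant gene of the list in MPNST-CM, was at 2970, 2759 and 2801 CPM there and at 757, 752 and 750 CPM in control medium. In WT Mφ, without IL-4, Mrc1 was at 1169, 1346 and 1328 CPM in MPNST-CM and at 714, 748 and 737 CPM in control medium. The lectin Clec10a rose 3.20-fold, and Ch25h, Mgl2, Ccl6, Il4ra and Tgm2 also rose. Alox15 and Myc did not pass. Without MPNST-CM library 1 the counts were the same, 17 and 8, and in the fit of 27 libraries 5 fell and 5 rose. The list can thus not be given one direction: Mrc1 was far above, and Retnla and Ear2 far below, their levels in control medium.

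**Figure D3:**
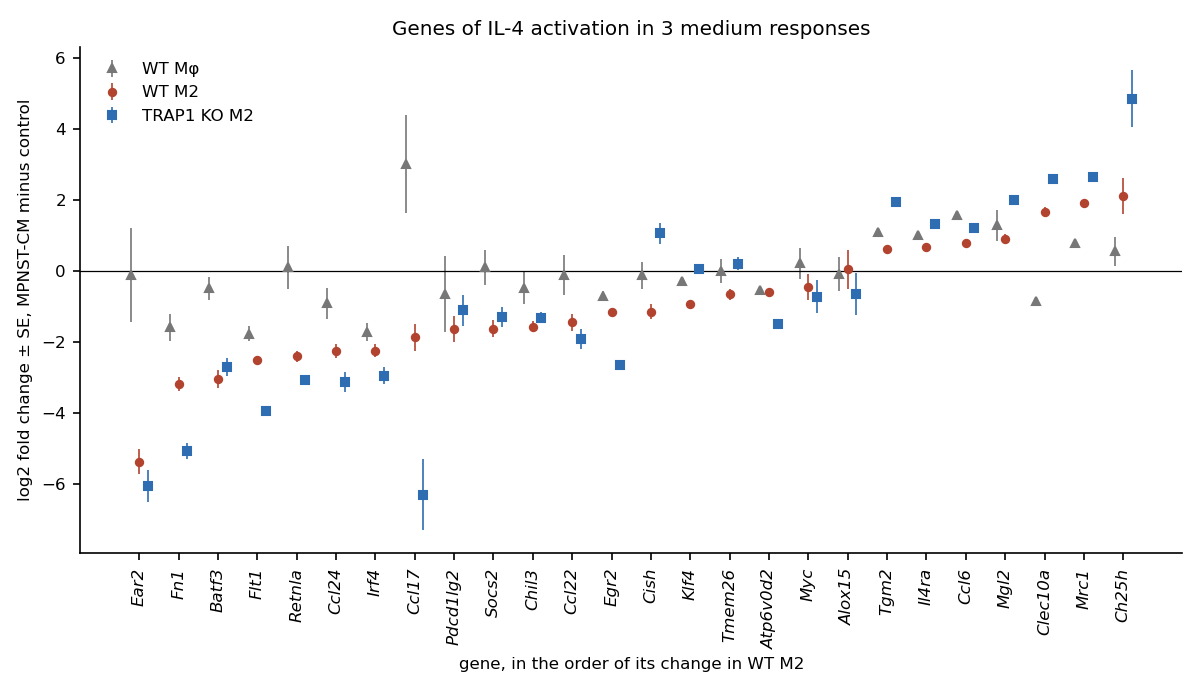
Log2 fold change (MPNST-CM minus control medium, bars show the standard error) of all but 1 of the 27 IL-4 activation genes tested, in WT Mφ (grey), WT M2 (red) and TRAP1 KO M2 (blue). In WT M2 those drawn range from -5.36 for Ear2 to 2.12 for Ch25h. Several, such as Retnla and Ear2, are near 0 CPM in Mφ and have wide errors there.

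The Retnla promoter (chr16:48842359-48842658, plus strand) is shown since this gene is a classic STAT6 target, with the letters TTC, any 4 bases, GAA in capitals, which 6.76% of the promoters hold. Of the 18 promoters of the IL-4 list, 13 are of genes that fell and 5 of genes that rose. The letters were in 4 of the 13 and in none of the 5.
Retnla: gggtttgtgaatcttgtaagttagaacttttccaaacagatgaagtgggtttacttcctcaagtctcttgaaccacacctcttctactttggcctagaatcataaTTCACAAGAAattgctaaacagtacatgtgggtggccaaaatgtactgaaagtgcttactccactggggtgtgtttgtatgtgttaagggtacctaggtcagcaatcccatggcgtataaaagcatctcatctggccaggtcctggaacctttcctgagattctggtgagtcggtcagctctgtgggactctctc

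Of the transcripts that the study measured by RT-qPCR, most are markers of macrophage states. The list was chosen on such cells and is not independent evidence of a direction. In the counts, 11 were tested, and 7 rose while 2 fell (median log2 fold change 1.2, also with Nos2 at its bound). Among the 7 were Mrc1, Clec10a, Fcgr1, the high-affinity receptor for IgG, Il1b, Vegfa and Hif1a. Vegfa, the main growth factor of vessels, was at 78.9, 77.0 and 89.7 CPM in MPNST-CM and at 31.2, 36 and 39.5 CPM in control medium, and Fcgr1 at 72.2, 81.7 and 79.1 against 28.7, 30.1 and 28.4 CPM. Il1b rose 2.40-fold to 26.5 ± 3.88 CPM and Hif1a 1.27-fold. The gelatinase Mmp9 fell from 163, 157 and 157 CPM to 64.7, 82.0 and 85.9 CPM. Nos2, the inducible nitric oxide synthase, had no counts in MPNST-CM and 1.65, 2.46 and 1.54 CPM in control medium, at least 5.06-fold lower against a floor of 3 counts per library. Tnf was at 22.5 ± 2.77 and 23.5 ± 1.14 CPM and did not pass (adjusted p = 0.812). Cd163 was at 5.23 ± 1.09 and 3.70 ± 1.35 CPM (adjusted p = 0.163), past the threshold without control library 3 (log2 fold change 0.80, adjusted p = 0.0443). With the 27 libraries, 3 of the list rose and 1 fell. Of 14 angiogenic factors from the study's protein array, also chosen on such cells and so not independent evidence, 5 rose (Pf4, Cxcl1, Ccl2, Vegfa and Ang) and 4 fell (Mmp9, Cxcl16, Hbegf and Timp1, the last not without MPNST-CM library 1, adjusted p = 0.0509), with a median of 0.13, and with the 27 libraries 3 rose and 1 fell. Ccl2 was at 1551, 1760 and 1852 CPM in MPNST-CM and at 689, 698 and 777 CPM in control medium.

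Most of the interferon-stimulated genes rose. Of 42 tested, 28 rose, 3 fell and 11 did not pass, and the median log2 fold change was 0.72. Without MPNST-CM library 1, 29 rose and 3 fell, but in the fit of 27 libraries 3 rose and 1 fell. Ifitm3, the most abundant, was at 2040, 2587 and 2437 CPM in MPNST-CM and at 672, 651 and 620 CPM in control medium, and Ifitm6 rose 6.06-fold. Oas2, Ifit1, Mx2 and Irf7, genes of antiviral defence and of its control, also rose. The GTPase genes Gbp2 and Gbp3, which respond strongly to interferon gamma, fell together with Mx1. Gbp2 was at 10.3, 8.29 and 8.93 CPM in MPNST-CM and at 48.8, 43.8 and 47.6 CPM in control medium.

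The interferon response element (ISRE, GAAANNGAA) was found in 19 of the 32 promoters of this list (59.4%), against 9.12% of all promoters, so it is shown for a gene that rose and a gene that fell. The promoters of 13 of 22 genes that rose and of both genes that fell and had one held it. In Ifitm3 (chr7:141010695-141010994, minus strand) and Gbp2 (chr3:142620413-142620712, plus strand), its matches are in capitals, and both windows also hold the AP-1 letters, which are not marked.
Ifitm3: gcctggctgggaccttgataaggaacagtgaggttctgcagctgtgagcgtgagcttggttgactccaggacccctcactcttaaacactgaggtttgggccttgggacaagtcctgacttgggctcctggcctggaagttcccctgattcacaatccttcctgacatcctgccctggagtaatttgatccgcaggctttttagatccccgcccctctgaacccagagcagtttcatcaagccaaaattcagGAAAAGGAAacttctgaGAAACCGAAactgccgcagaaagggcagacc
Gbp2: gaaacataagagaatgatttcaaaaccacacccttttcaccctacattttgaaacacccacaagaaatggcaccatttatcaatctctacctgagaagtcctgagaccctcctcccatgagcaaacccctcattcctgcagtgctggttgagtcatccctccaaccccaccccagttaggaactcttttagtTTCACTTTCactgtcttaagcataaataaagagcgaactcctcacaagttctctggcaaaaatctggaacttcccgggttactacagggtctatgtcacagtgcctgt
Both windows are examples that hold the letters, and the part of the motif in either change was not tested.

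**Figure D4:**
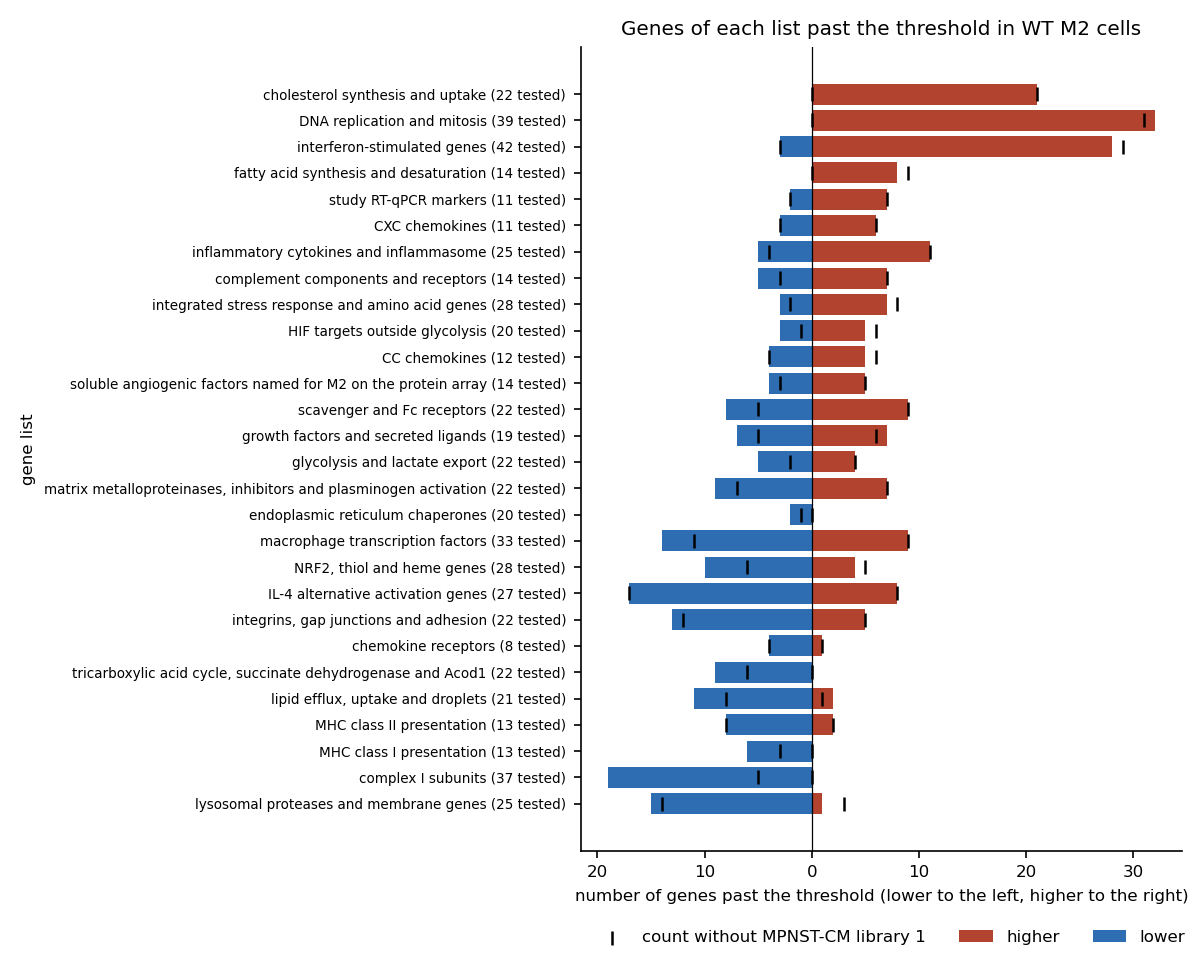
Number of genes past the threshold in each of 28 gene lists in WT M2 cells, higher in MPNST-CM to the right (red) and lower to the left (blue). Black marks give the same counts without MPNST-CM library 1. Sterol synthesis (21), DNA replication and mitosis (32) and interferon-stimulated genes (28) have the most rises, and complex I (19 with all libraries, 5 without library 1) and IL-4 activation (17) the most falls.

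Genes of sterol synthesis rose almost as a whole. Of 22 genes of cholesterol synthesis and uptake tested, 21 rose, with a median change of 0.75 on the log2 scale, and Ebp did not pass (0.03). Without MPNST-CM library 1 the count was 21 too, and 12 in the fit of 27 libraries. Farnesyl diphosphate synthase (Fdps) was at 78.4, 83.8 and 81.6 CPM in MPNST-CM and at 30.5, 29.3 and 27.1 CPM in control medium, and lanosterol synthase (Lss) at 53.7, 52.9 and 52.2 against 18.3, 21.4 and 19.9 CPM. Stard4, which carries sterol between membranes, rose 2.47-fold, Hsd17b7 2.28-fold and Msmo1, the most abundant, 1.58-fold. Genes of fatty acid synthesis went the same way, with 8 of 14 genes higher, 6 not past the threshold and a median of 0.46, and 6 higher in the fit of 27 libraries. Elovl6, which lengthens fatty acids, was at 47, 41.8 and 42.1 CPM against 10.7, 8.42 and 10.4 CPM, and the desaturase Scd1 at 36.3, 38.5 and 35.6 against 10.5, 8.16 and 6.18 CPM. Fatty acid synthase (Fasn) rose 2.19-fold, Fads2 2.69-fold and Scd2 1.76-fold.

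More genes of lipid efflux and uptake fell than rose. Of 21 tested, 11 fell (8 without MPNST-CM library 1) and 2 rose (Msr1 and Nceh1, of which 1 rose without MPNST-CM library 1 or without control library 2), with a median of -0.21, and in the fit of 27 libraries none of these calls was kept. Nr1h3, the oxysterol receptor LXR alpha, was at 6.41, 6.22 and 7.05 CPM in MPNST-CM and at 16.4, 18.4 and 15.3 CPM in control medium, and its target Abcg1, which exports cholesterol, fell 2.05-fold, as Lpl did by 2.27-fold. Pparg, a receptor for fatty acids, was at 29.3, 34.4 and 43 CPM against 80.8, 66.8 and 87.6 CPM (adjusted p = 0.0474). It missed the threshold without each of the 6 libraries in turn (adjusted p between 0.0656 and 0.179).

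Transcripts of dividing cells were higher in MPNST-CM. Of 39 genes of DNA replication and mitosis tested, 32 rose and 7 did not pass, and the median log2 fold change was 0.80. The number was 31 without MPNST-CM library 1 and 6 in the fit of 27 libraries. Thymidine kinase (Tk1) was at 51.8, 55.9 and 64.4 CPM in MPNST-CM and at 20.1, 17 and 17 CPM in control medium. Ube2c, which acts in mitosis, was at 127, 136 and 138 against 63.2, 64.6 and 58.8 CPM. Rrm2, a subunit of ribonucleotide reductase, rose 2.34-fold. Topoisomerase Top2a was at 318, 197 and 189 against 102, 99.6 and 98.7 CPM, with library 1 as the highest. The cell cycle inhibitor Cdkn1a, the most abundant member, was at 343 ± 66.1 and 379 ± 8.13 CPM and did not pass (adjusted p = 0.737). Mki67, Pcna, Ccnd1, Gins2, Cdc20 and Exo1 did not pass either.

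Many transcripts of mitochondrial respiration were slightly lower, and this rested in part on MPNST-CM library 1. Of 37 subunits of complex I tested, 19 fell and 18 did not pass, and the median log2 fold change was -0.26. The number that fell was 5 without MPNST-CM library 1, 11 without library 3, 11, 7 and 8 without control library 2, 3 and 4, 3 in the fit of 27 libraries, 8 with no filter on low counts and 12 with a filter at 1 CPM in 3 libraries. Ndufa13, the most abundant in control medium, was at 246, 219 and 212 CPM in MPNST-CM and at 310, 310 and 334 CPM in that medium, and Ndufb5 at 127, 131 and 133 against 202, 180 and 195 CPM. Ndufa1 was at 43, 47.7 and 47.9 against 84.4, 73.7 and 85.9 CPM but missed the threshold without each library in turn (adjusted p between 0.0612 and 0.132). Ndufa10 fell 1.37-fold, but not past the threshold without MPNST-CM library 2 (adjusted p = 0.0522) or 3 (0.0503). Of the 13 messenger RNAs of the mitochondrial genome, 6 fell, or 3 without library 1, with a median of -0.35.

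In the list of the tricarboxylic acid cycle, 9 of 22 genes tested fell and 13 did not pass, with a median of -0.19. The list also held genes that are not enzymes of the cycle: assembly factors of succinate dehydrogenase, Acod1, and Trap1, a mitochondrial chaperone. Acod1 and Trap1 are among the 9. Without MPNST-CM library 1 the number was 6, and 3 in the fit of 27 libraries. Acod1, which makes itaconate, was at 10.1, 9.03 and 11.7 CPM in MPNST-CM and at 30.8, 35.4 and 23 CPM in control medium, and Idh3g, a subunit of isocitrate dehydrogenase, fell 1.53-fold. Sdhb, a subunit of succinate dehydrogenase and the most abundant of the list, was at 253, 316 and 311 against 402, 386 and 382 CPM, but did not pass without library 1 (adjusted p = 0.0543).

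Genes of glycolysis did not move as a block. Of 22 genes tested, 4 rose and 5 fell, with a median of 0.05. The number that fell was 2 without MPNST-CM library 1 or control library 2 or 3, 3 without control library 4 or with either other filter on low counts, and 2 with the 27 libraries, where 2 rose. Aldoc was at 44.5, 57.6 and 53.6 CPM in MPNST-CM against 20.1, 18.3 and 17.5 CPM, and Pfkl and the most abundant gene, Pkm, rose 1.66- and 1.27-fold. The phosphofructokinase Pfkp was at 77.6, 75.3 and 77.1 against 172, 179 and 175 CPM, and hexokinase 2 (Hk2) fell 1.97-fold. Gapdh and Eno1 were under 6 CPM here, and both have close copies that can take up their reads. Among 20 targets of HIF outside glycolysis, 5 rose and 3 fell, with a median of 0.03. Ddit4, which restrains mTOR, was at 37.6, 39.9 and 37.2 CPM in MPNST-CM and at 7.21, 5.70 and 3.51 CPM in control medium, and Hilpda, a lipid droplet protein, at 88.4, 117 and 122 against 33.8, 34.6 and 27.9 CPM. P4ha2, Vegfa and Ero1a also rose. Ndrg1 fell 1.52-fold, and the number that fell was 1 without MPNST-CM library 1 or 2 or without control library 2 or 4. In the fit of 27 libraries 1 rose and the other 19 did not pass. Of the 17 promoters of the list, 15 held the HIF core.

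Most genes of the MHC class II list fell. Of 13 genes tested, 8 fell and 2 rose, with a median of -0.86. Ciita, the coactivator that turns these genes on, was at 10.9, 7.44 and 8.81 CPM in MPNST-CM and at 53.2, 56.5 and 56.6 CPM in control medium. H2-Eb1 was at 143, 152 and 153 against 487, 484 and 482 CPM and H2-Ab1 at 291, 312 and 314 against 928, 826 and 881 CPM. The genes that rose encode the costimulatory proteins Cd86 (24.1, 27.4 and 30.1 against 7.51, 11 and 8.84 CPM) and Cd80, and 1 of them rose without MPNST-CM library 3 or control library 3. With the 27 libraries 3 fell and the other 10 did not pass. Of 13 class I genes tested, 6 fell and 7 did not pass, with a median of -0.31, and 3 fell without MPNST-CM library 1 or control library 2 and 1 with the 27 libraries. Psmb10, a subunit of the immunoproteasome, fell 1.86-fold, and Tapbp and H2-K1 1.5- and 1.35-fold. B2m passed (adjusted p = 0.0174) but not without MPNST-CM library 1 (0.227) or control library 2 (0.113), 3 (0.0910) or 4 (0.137), nor did H2-D1 without MPNST-CM library 1 (0.101) or control library 2 (0.0697).

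Most lysosomal genes fell as well. Of 25 tested, 15 fell, with a median of -0.58, or 14 without MPNST-CM library 1 and 8 with the 27 libraries, and Ctsl alone rose (3 rose without library 1). Prosaposin (Psap), which activates lysosomal lipid breakdown, was at 839, 1172 and 964 CPM in MPNST-CM and at 3903, 2948 and 3168 CPM in control medium. The protease Ctsh fell 2.31-fold and Tfeb, a regulator of lysosomal genes, 2.12-fold. The complement list held both directions, with 7 rises and 5 falls among 14 genes tested and a median of 0.43. C5ar1, the receptor for C5a, was at 477, 528 and 500 CPM against 101, 103 and 109 CPM, and the C1q subunit C1qa rose 2.29-fold. C3, the central component, fell 3.13-fold to 58.7, 59.3 and 63.7 CPM. The number that fell was 3 without MPNST-CM library 1 or control library 4, and with the 27 libraries 4 rose and 2 fell.

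Among scavenger and Fc receptors, 9 of 22 tested rose and 8 fell (5 without MPNST-CM library 1 or control library 4), with a median of 0.14, and with the 27 libraries 4 rose and 1 fell. Beside Mrc1 and Fcgr1, the scavenger receptor Stab1 rose 3.68-fold, to 16.6, 26.3 and 25.0 CPM. Cd36, the most abundant in control medium, was at 2233, 2122 and 2275 against 2743, 2856 and 3101 CPM, but did not pass without MPNST-CM library 1 (adjusted p = 0.0580) or control library 4 (0.0994). Integrins and other adhesion genes mostly fell, with 13 falls and 5 rises among 22 tested and a median of -0.34, or 5 and 3 with the 27 libraries. Itgax, which encodes CD11c, was at 353, 386 and 374 CPM in MPNST-CM and at 1494, 1476 and 1506 CPM in control medium. Its partner Itgb2, which also serves complement receptors, fell 2.19-fold, and Itgal fell 3.17-fold. Pecam1 rose 2.92-fold, to 10.1, 11.6 and 9.31 CPM.

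Matrix proteases changed in opposite directions. Of 22 genes of metalloproteinases, their inhibitors and plasminogen activation tested, 7 rose and 9 fell, with a median of -0.15, and 4 rose and 1 fell with the 27 libraries. Mmp19 was at 32.6, 36.5 and 37.9 CPM in MPNST-CM and at 8.41, 9.20 and 10.8 CPM in control medium, and Mmp27 rose 3.08-fold. Mmp14, a membrane-bound collagenase, was at 4.53, 5.85 and 5.03 against 21.5, 24.9 and 18.8 CPM, and fell as Mmp12 and Mmp9 did. Growth factors and other secreted ligands had 7 rises and 7 falls among 19 tested, with a median of -0.04, and with the 27 libraries 3 rose and the other 16 did not pass. Gdf15, a stress-induced cytokine, was at 101, 103 and 113 CPM in MPNST-CM and at 18.8, 17 and 14.2 CPM in control medium, and Osm, of the IL-6 family, at 19.2, 26.0 and 26.2 against 5.11, 3.11 and 3.79 CPM. Vegfb rose 2.59-fold. Pdgfb fell 2.71-fold, from 126, 118 and 131 CPM to 47.8, 47.3 and 43.4 CPM.

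Of 25 inflammatory genes tested, 11 rose and 5 fell, with a median of 0.30 (also with Nos2 at its bound), and 3 fell without control library 4 or with no filter on low counts. In the fit of 27 libraries 2 rose and 3 fell. Cd14, the coreceptor for bacterial lipopolysaccharide, was at 508, 539 and 576 CPM in MPNST-CM and at 176, 181 and 187 CPM in control medium. The lectin receptor Clec4e rose 3.01-fold and Socs3, an inhibitor of cytokine signalling, 2.98-fold, and Saa3, an acute phase protein, fell 2.76-fold. Of 33 macrophage transcription factors, 9 rose and 14 fell, with a median of -0.13, and with the 27 libraries 3 and 4. Maf, a transcription factor of mature macrophages, was at 690, 641 and 647 CPM against 129, 130 and 132 CPM. The immediate-early gene Nr4a1 rose 2.74-fold, to 8.67, 9.76 and 13.7 CPM.

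The NRF2 and integrated stress lists held rises and falls, and few of the chaperones passed. Of 28 genes of the NRF2 response, thiols and heme tested, 4 rose and 10 fell (6 without MPNST-CM library 1), with a median of -0.21, and with the 27 libraries 1 rose and 2 fell. Heme oxygenase 1 (Hmox1) was at 202, 194 and 206 CPM in MPNST-CM and at 104, 107 and 121 CPM in control medium. Peroxiredoxin 1 (Prdx1) fell 1.90-fold, biliverdin reductase Blvrb 1.51-fold and the transferrin receptor Tfrc 1.51-fold, while Fth1, the most abundant, was at 13290 ± 612 and 12600 ± 842 CPM (adjusted p = 0.569). Among 28 genes of the integrated stress response and amino acids, 7 rose and 3 fell, with a median of 0.22, and with the 27 libraries 1 rose and the other 27 did not pass. Atf5 rose 2.05-fold beside Gdf15. Atf3, the most abundant in control medium, was at 230, 185 and 188 CPM against 487, 499.9 and 505 CPM, and the glutamine carrier Slc1a5 fell 1.80-fold. Of 20 chaperones of the endoplasmic reticulum, 2 fell, Hsp90b1 (1.4-fold) and Hspa5 (1.15-fold), and 18 did not pass, with a median of -0.11. Hsp90b1 did not pass without MPNST-CM library 3 (adjusted p = 0.0514), nor Hspa5 without MPNST-CM library 1 or 3 or control library 2, 3 or 4 (between 0.0752 and 0.378), so that neither call was kept without MPNST-CM library 3 or with the 27 libraries.

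Whether the response of WT M2 differed from that of WT Mφ was tested directly, in the same fit. Most of the interferon-stimulated genes had the higher response in M2 in the fit of 24 libraries. The responses differed in 1653 genes (12.1%), of which 712 had the higher log2 fold change in M2 (5.23%) and 941 the lower (6.91%). In the fit of 27 libraries, 192 genes differed. Of 42 interferon-stimulated genes, 29 had the higher log2 fold change in M2 and 1 the lower, and their median was -0.24 in Mφ, against -0.02 over all genes there. Of 39 replication and mitosis genes, 14 were higher in M2 and the others did not pass (median 0.32 in Mφ). Of 37 complex I subunits, 21 were lower in M2 (median 0.22 in Mφ), or 14 without MPNST-CM library 1 or control library 2 or 4 or with no filter on low counts. Also lower were 10 of 22 genes of the tricarboxylic acid cycle list (7 without MPNST-CM library 1 and 6 with no filter), 10 of 20 ER chaperones and 9 of 22 glycolysis genes, where 1 other gene was higher. Of the cholesterol genes, 6 of 22 had the lower log2 fold change in M2 (median 1.12 in Mφ), or 3 with no filter. Few of these differences were kept with the 27 libraries: of the interferon-stimulated genes none was higher in M2 and 1 lower, of the replication and mitosis genes and of the cholesterol genes none differed, and 4 complex I subunits, 2 genes of the tricarboxylic acid cycle list, 1 ER chaperone and 4 glycolysis genes were lower. Clec10a rose in M2 and fell in Mφ (log2 fold changes 1.68 and -0.84, edgeR adjusted p of the difference 3.89e-10). Maf rose in M2 by 2.34 and had a log2 fold change of -0.04 in Mφ (edgeR adjusted p of the difference 2.73e-14). Maf was at 843 to 1032 CPM in Mφ in MPNST-CM and at 933 to 1019 CPM in Mφ in control medium. In M2 it was at 641 to 690 and at 129 to 132 CPM, so that M2 in control medium was the low group. The lipopolysaccharide coreceptor Cd14 differed as well (1.58 and 0.35, edgeR adjusted p of the difference 0.000554). Its level was 459 to 823 CPM in Mφ in MPNST-CM and 478 to 590 CPM in Mφ in control medium. In M2 its level was 508 to 576 and 176 to 187 CPM.

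Among the 5 genes with the largest such differences, of those past the threshold with a mean of 10 CPM or more in any of the 4 groups and no overlap between the media in WT M2, Ctla2b stood near one level in 3 of these groups. It was at 160 ± 11.8 CPM in M2 in MPNST-CM, at 14.9 ± 1.15 CPM in M2 in control medium, and at 170 ± 23 and 160 ± 19.4 CPM in Mφ in these media (SD, n = 3). Pmepa1 was at 46.3 ± 13.6 and 6.24 ± 0.357 CPM in M2 and at 1.2 ± 0.271 and 1.53 ± 0.973 CPM in Mφ. Gja1 rose in both, to 19.6 CPM in M2 and 11.1 CPM in Mφ, from 0.467 and 2.99 CPM. Gm30605 rose in M2, to 15 CPM, and fell in Mφ, to 0.490 CPM. Gja1 in M2 in control medium and Gm30605 in Mφ in MPNST-CM were near the limit of 3 counts, so that the sizes of their differences are not firm. Rnase2a was below the limit of 3 counts in both media in Mφ, so that its difference has no size there. Of these 5 differences, that of Pmepa1 alone was kept with the 27 libraries.

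Whether the response differed between WT and TRAP1 KO M2 was tested in the same way. With the 24 libraries, most genes of sterol synthesis and cell division had the higher response in WT, and most interferon-stimulated genes and genes of the integrated stress response the lower. The responses differed in 2751 genes (20.2%), 1477 with the higher log2 fold change in WT (10.8%) and 1274 with the lower (9.36%), and in 180 genes in the fit of 27 libraries, which also held a batch 2 library of TRAP1 KO M2 in each medium. All 22 cholesterol genes and 35 of 39 replication and mitosis genes had the higher log2 fold change in WT, and their medians in TRAP1 KO M2 were -0.89 and -1.01, against -0.01 over all genes there. Of 42 interferon-stimulated genes, 36 had the lower log2 fold change in WT and 1 the higher (median 2.02 in TRAP1 KO M2), as did 21 of 28 genes of the integrated stress response, where 3 others were higher. The other stress lists did not follow: 7 of 20 ER chaperones were higher in WT and none lower, and 2 of 28 NRF2, thiol and heme genes were higher and 5 lower. The IL-4 list, with a median of -1.10 in TRAP1 KO M2, had 6 genes higher and 10 lower in WT. Of the RT-qPCR list, 9 of 11 genes were lower in WT and 1 higher (median 1.86 in TRAP1 KO M2). Of the HIF targets outside glycolysis, 10 of 20 were lower and 2 higher (median 0.73 in TRAP1 KO M2). With the 27 libraries, 7 cholesterol genes were higher in WT, none of the replication and mitosis genes, NRF2 genes and chaperones differed, 1 interferon-stimulated gene was lower, 1 gene of the integrated stress response was higher and 2 of the IL-4 list were lower. In that fit 1 gene of the RT-qPCR list was lower and 1 HIF target higher. Fdps rose in WT and fell in TRAP1 KO M2 (log2 fold changes 1.49 and -1.2, edgeR adjusted p of the difference 2.75e-12). Gbp2 fell in WT and rose in TRAP1 KO M2 (-2.35 and 0.37, edgeR adjusted p of the difference 5.16e-13). Xist, the RNA of the inactive X chromosome, was at 254 to 504 CPM in WT M2 and at most at 1.14 CPM in batch 1 libraries from TRAP1 KO cells. This does not match what is expected of the female mice that the labels give for both genotypes. Of 4 genes of the Y chromosome, chosen after Xist was seen, Ddx3y and Kdm5d had no counts in any batch 1 library and Eif2s3y and Uty at most 2, but no male library shows that these genes would be counted. Why Xist was low was not tested, and its difference and the loss of TRAP1 cannot be told apart.

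Of the 5 genes with the largest differences from TRAP1 KO M2, chosen in the same way, Fads2 went opposite ways. In WT it was at 127 ± 0.873 CPM with MPNST-CM and at 47.4 ± 7.13 CPM without, and at 11 ± 0.994 and 80.6 ± 6.70 CPM in TRAP1 KO M2 (SD, n = 3). The coagulation factor F5 rose to 7.42 CPM in WT and to 326 CPM in TRAP1 KO M2, and Aqp9, a channel for water and glycerol, to 6.09 and 69.1 CPM. Cox6a2, a subunit of cytochrome c oxidase, fell to 0.455 CPM in WT, near the limit of 3 counts, so that the size of its difference is not firm, and rose to 20.4 CPM in TRAP1 KO M2. The pseudogene Ftl2-ps, whose reads cannot be told from those of its parent gene with certainty, was at 121 ± 201 CPM in TRAP1 KO M2 in control medium. Its libraries 1, 2 and 3 there were at 353, 6.43 and 4.83 CPM, so that its difference rests on library 1. The difference was not tested without that library. None of these 5 differences was past the threshold with the 27 libraries, where that of F5 changed sign (0.96, from -4.60), and that of Ftl2-ps was also lost without MPNST-CM library 1 (adjusted p = 0.0747) or control library 2 (0.0611) or 3 (0.0574) in edgeR's test.

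**Figure D5:**
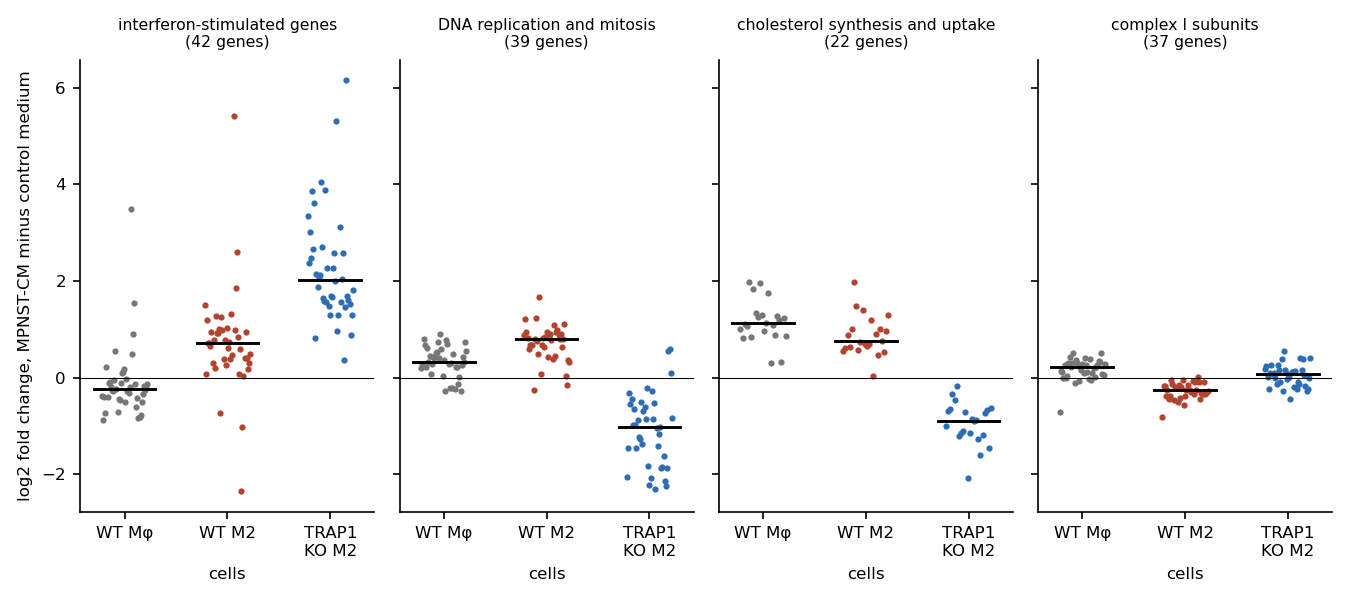
Log2 fold change (MPNST-CM minus control medium) of every gene tested in 4 lists, one point per gene, in WT Mφ (grey), WT M2 (red) and TRAP1 KO M2 (blue), with the median of each as a black line. The median of the interferon-stimulated genes is -0.24, 0.72 and 2.02 in these cells, and that of the cholesterol genes 1.12, 0.75 and -0.89.

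Among the markers of other cell types, those of megakaryocytes and platelets and those of osteoclasts had the highest sums. The megakaryocyte and platelet markers summed to 4278, 5229 and 5185 CPM in MPNST-CM and to 361, 344 and 364 CPM in control medium, nearly all from Pf4 and Ppbp, which rose. The other 6 markers of that list together had 20, 18 and 19 counts in MPNST-CM and 10, 25 and 10 counts in control medium, with Gp1bb at 0. Osteoclast markers, led by Dcstamp, were at 479 to 539 CPM against 961 to 990 CPM, with 4 of 5 tested lower and Calcr at 0. Endothelial markers summed to between 19.6 and 28.8 CPM against 3.15 to 3.63 CPM, led by Kdr, with Tek and Cldn5 at 0. Eosinophil markers, led by Siglecf, were at 26.3 to 39.5 against 55.2 to 58.4 CPM, and neutrophil markers, led by S100a8, at 8.55 to 12.2 against 17.7 to 21.6 CPM. Markers of mast cells and basophils, led by Mcpt8, were at 1.01 to 2.44 against 3.76 to 4.92 CPM. Dendritic markers were at 13.7 to 18.1 against 14.9 to 17 CPM, with Ccr7 higher (10.1, 10 and 9.18 against 4.06, 4.92 and 4.07 CPM) and Zbtb46 lower (6.16, 3.54 and 2.52 against 10.7, 8.55 and 6.6 CPM), and those of Schwann cells at 4.78 to 5.15 against 5.83 to 6.61 CPM, with Ngfr and Cdh19 at 0. The lists of T and NK cells (Ncr1 at 0), B cells (Cd79a at 0), erythroid cells (Hba-a1 at 0) and fibroblasts (Lum at 0) each summed to at most 1.89 CPM in any library. The part of such cells in the results was not tested.

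Beyond these lists, promoters were described by the share that held each motif. The ISRE letters were in 10.4% of promoters of genes that rose and 9.99% of those that fell, against 9.12% of all, and the STAT6 letters in 7.77% and 6.91%, against 6.76%. The antioxidant response element (TGACNNNGC) was in 17.7% and 18.8%, against 17%.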

How the data were processed

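Raw counts per gene symbol were deposited by the authors, who trimmed the single-end 75 bp 3′ reads with Trimmomatic, checked them with FastQC, mapped them with HISAT2, filtered them with SAMtools and counted them with featureCounts (versions not given). The processing notes name the build mm39 and the paper's methods mm10, and the annotation is not given in the sources used here. Of the table's 50559 rows, 27 columns matched samples, and 5 columns that matched none were not used. The 24 libraries of batch 1 were fitted as 8 group means in edgeR 4.0.16 (TMM, filterByExpr by group, robust quasi-likelihood F test, Benjamini-Hochberg adjustment, threshold 0.05) under R 4.3.3 with limma 3.58.1. Differences between responses were contrasts of that fit. Scripts were tested on simulated data. Python 3.11.15, pandas 2.3.3, numpy 2.4.6 and matplotlib 3.10.9 made tables and figures.

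Named genes were Trap1 and the RT-qPCR markers; the 15 rises and 15 falls with the largest change among genes past the threshold, without overlap between the media and with a higher mean of 10 CPM or more; the 10 with the largest difference of mean CPM; in each of 28 lists up to 4 members past the threshold with a higher mean of 10 CPM or more and the largest change, and the most abundant; and for each difference between responses the 5 largest among genes past the threshold with a mean of 10 CPM or more in any of the 4 groups and no overlap between the media in WT M2. Other members are named only as part of their list. Members and lists were chosen with earlier results of these data known. Of 644 list symbols 641 were in the table, 4 of them through synonyms. Floors are 3 counts per library. Promoters are from RefSeq (GRCm38.p6), matched by symbol for 9906 of 13614 genes. Alternatives were DESeq2 1.42.0, its median-of-ratios scaling in edgeR, other filters on low counts, all 27 libraries, a replicate block, the 6 libraries alone, leaving out each of the 6 libraries of WT M2, and a fold threshold.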

Additional observations from a re-analysis of the deposited data

Results flagged for a closer look

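In 1653 genes, WT M2 and WT Mφ responded differently to MPNST-CM by the test of the difference itself in edgeR. The largest differences of log2 fold changes, M2 minus Mφ, among genes past the threshold with a mean of 10 CPM or more in any of the 4 groups and no overlap between the media in WT M2, were -4.383 for Rnase2a, 3.557 for Gm30605, 3.452 for Gja1, 3.327 for Ctla2b and 3.242 for Pmepa1. Rnase2a was below 3 counts per library in Mφ, so its value has no size there. Gja1 in WT M2 in control medium and Gm30605 in Mφ in MPNST-CM were near 3 counts per library, so the sizes of their values are not firm.

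The response differed between WT M2 and TRAP1 KO M2 in 2751 genes by the same test. The largest differences, WT minus TRAP1 KO, among genes chosen in the same way, were -6.652 for Cox6a2, 5.886 for Ftl2-ps, -4.684 for Aqp9, -4.599 for F5 and 4.296 for Fads2. Cox6a2 was near 3 counts per library in WT M2 in MPNST-CM, so the size of its value is not firm. The value for Ftl2-ps rests on library 1 of TRAP1 KO M2 in control medium, at 353 CPM against 6.43 and 4.83 CPM in libraries 2 and 3.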

How the results depend on the processing

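Of 140 named genes past the threshold, 128 stayed past it in the same direction without each library in turn, and 128 under each of the other fits but that of 27 libraries, which lost 69 calls and turned none of them. The fold threshold is not among these fits. Genes not past the threshold passed in some: Ccl9 with a replicate block and without MPNST-CM library 1, Ccr1 with the 6 libraries alone and Cd163 without control library 3. With the 27 libraries 1014 genes passed, 592 higher and 422 lower, and 192 and 180 genes differed from Mφ and TRAP1 KO M2. With a change of 2-fold or more also asked for, 934 genes passed, 504 higher and 430 lower. The fit of 27 libraries held no term for batch, and the cause of its fewer calls was not tested. Leaving out each library of WT M2 gave between 2592 and 2921 genes, between 1309 and 1645 higher and between 1196 and 1566 lower. Tnf, not past the threshold (-0.06), had a log2 fold change of 0.003354 with no filter on low counts, 0.03414 without MPNST-CM library 3 and 0.01602 without control library 3, within a range of -0.1329 to 0.03414 over the libraries left out. The difference of F5 between WT and TRAP1 KO M2 was 0.9632 with the 27 libraries, where the cause was not tested. With a replicate block 3164 genes passed, and 2819 of the 3330 were called in the same direction. The labels do not say what a number shares. In WT M2, the deviations of same-numbered libraries from their group means had r of 0.0735 for libraries 2 and 0.0014 for libraries 3. WT M2 in control medium has no library 1, so these values do not cover MPNST-CM library 1. Over batch 1 the mean r was 0.107 for 77 same-numbered pairs and -0.0451 for 175 others. The numbers were not taken to pair samples. An alternative gave no value for 3 named results.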
